A study of Panax notoginseng with 2 samples.

Results

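Among the transcribed loci of Panax notoginseng roots, 1996 of 147111 carried the Cufflinks class code o. This code is given to a transcript that overlaps an exon of a reference gene on the same strand but matches neither its structure nor any of its splice junctions. The members were taken by this code alone, from the annotation table, and the code uses no FPKM value. Each was joined by its locus identifier to its position, strand, length and 2 values of FPKM, fragments per kilobase of transcript relative to library size. The code is that of the 1 transcript listed per locus, whereas FPKM is given per locus. A locus can also hold transcripts of other codes, as a reference transcript in 2 of the 6 loci with complete exon positions. Interval lengths, levels and ratios below are therefore those of loci, not of code o transcripts alone. Panax notoginseng is a medicinal relative of ginseng whose root is the harvested organ. The study sequenced RNA from roots of field-grown plants in 2 libraries, 1 from control plants without treatment and 1 from plants that received 5 µM cadmium, a heavy metal toxic to plants. The sources used here do not give how and for how long the cadmium was applied, the age of the plants or whether plants were pooled, and the labels mention a single library per group. The labelled tissue could not be checked against marker genes, since the files name none.

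When reads are assembled on a draft genome, the assembler compares each new transcript with the existing gene models. A transcript with the same chain of introns keeps the reference structure (code =). A transcript that shares at least 1 junction and differs elsewhere is a new splice form (code j). Code o is what remains when exons overlap on the same strand and no junction is shared, for example when a spliced transcript runs over a gene annotated without introns, or when the annotated exon limits differ from those transcribed. Loci of this kind, called other exon overlaps below, therefore mark places where the gene model and the transcribed structure differ. Loci are tied to reference genes by identifier only, with no gene name or function, so no pathway can be described, and loci are given by position on the scaffolds and contigs (1-based, as named in the files, build not given in the sources used here). No sequence was used here.

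Over the whole table, FPKM exceeded 0 at 41912 loci of the control library and at 34976 of the cadmium library. The number of fragments behind the value of a spliced locus is unknown, and with 1 library per group no difference below has a replicate check, a p-value or an interval. All differences are between these 2 libraries and cannot be assigned to the treatment. The same limit holds for every difference between locus classes, which is given as counts and medians and was not tested. In whole roots, fewer cells of a type and less RNA per cell cannot be told apart.

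Complete exon positions were at hand for 6 of the loci, all on short contigs, and 2 of these also listed a reference transcript. On contig C4717509, a transcript of 2 exons (6 to 582 and 655 to 725) ran over a reference transcript that had a single exon from 63 to 626. The intron of 72 bases therefore began inside the reference exon, and the locus had 2.24 FPKM without and 8.41 FPKM with cadmium. On contig C4756899, a transcript with exons at 9 to 353 and 639 to 767 overlapped a reference transcript with a single exon from 96 to 500. There the values were 2.74 FPKM in control roots and 19.9 FPKM under cadmium. In both loci a spliced transcript overlapped an unspliced gene model.

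In the other 4 of these loci no transcript of reference structure was listed, so the overlap with a reference exon cannot be seen there. The locus on contig C4739871 had 3 exons (204 to 350, 446 to 699 and 777 to 909) and went from 0.61 FPKM in the control to 1.81 FPKM in cadmium. On contig C4752383 both of 2 transcripts had 3 exons and differed in the end of the middle exon, at 577 or at 558, with 3.17 and 4.54 FPKM for the locus. The locus on contig C4711033 had exons at 26 to 541 and 722 to 786, was listed at 0 in the control and stood at 16.5 FPKM in cadmium. The locus on contig C4771601 had exons at 45 to 550 and 1344 to 1480, and the same locus held an unspliced transcript of the intergenic class from 598 to 1477. It was the only member of these 6 with a lower value in cadmium, 0.38 FPKM against 2.53 in the control.

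All 1996 loci had a strand, 953 plus and 1043 minus. No locus carried a protein identifier for its listed transcript. They lay on 1759 scaffolds and contigs, of which 1555 held a single such locus and none held more than 5. They named 1992 different reference genes, and for 248 of the loci (12.4%) the same reference gene was also named by another locus of any class.

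Many of these loci lay in intervals that the table gives to more than 1 locus. An identical interval was listed for another locus in 564 cases (28.3%), against 14.5% of new splice forms and 1.81% of reference-structure loci. Among loci with at least 1 FPKM in 1 library the shares were 28.2%, 15.2% and 10.6%. The shared interval held 2 loci in 338 of the 564 cases and up to 10. The listed exon began at the first base of the interval in all 1432 loci with an interval of their own, but inside it in 209 of the 564 shared ones. In all 1432 the listed exon was also shorter than the interval. This alone does not show splicing, since the interval spans all transcripts of a locus and another transcript can reach further. For the shared ones the interval covers other loci as well. The length of a shared interval is therefore that of a group of loci, not of 1 transcribed unit. A reference-structure locus was in the same interval for 300 of the 564, a new splice form for 201 and an intergenic locus for 138. For 188 of the 564, a locus in the same interval and on the same strand named the same reference gene.

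Among loci with an interval of their own and at least 1 FPKM in 1 library, other exon overlaps were intermediate in span. Their median length from first to last base, introns included, was 3157 bases (quartiles 2131 and 4589, n = 1365). New splice forms had a median of 5957 bases (n = 12603) and reference-structure loci 1323 (n = 9209). The listed exon, in contrast, was longest in other exon overlaps, with a median of 469 bases against 383 and 260. Of their listed exons 25.3% were over 1000 bases, against 6.94% in new splice forms and 11.8% in reference-structure loci. The difference from new splice forms lay in the upper part of the distribution, since the lower quartiles were 227 and 241 bases. Reference-structure loci had a lower quartile of 129 bases. Their 90th percentile, 1102 bases, was below the 1690 of other exon overlaps but above the 864 of new splice forms. The listed exon made up a median of 14.5% of the interval, against 5.94% in new splice forms and 24.5% in reference-structure loci.

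**Figure D1:**
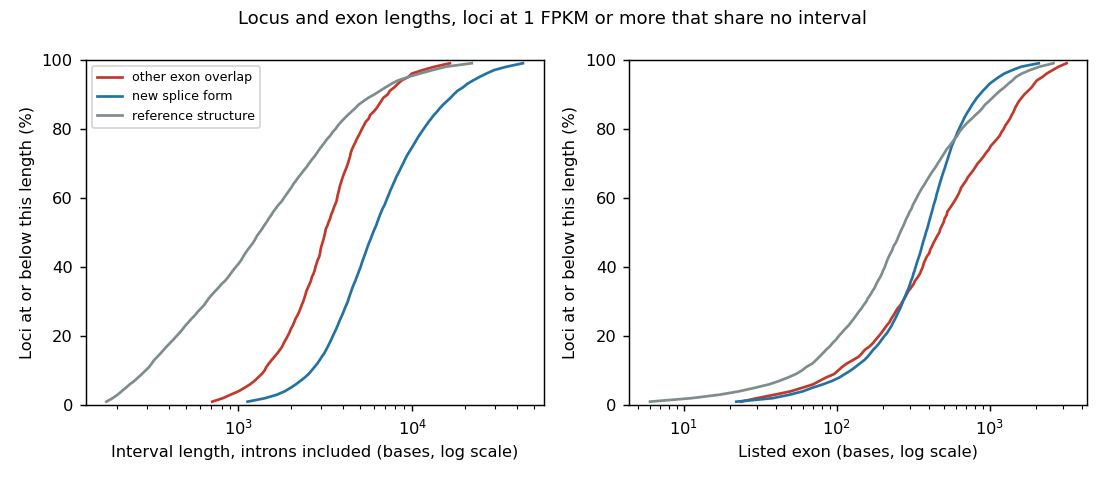
Share of loci (%) at or below a given interval length (left) and listed exon length (right), in bases on a log scale, for the 3 classes, over loci at 1 FPKM or more in at least 1 library that share no interval. The curve of other exon overlaps lies between the others for interval length (median 3157 bases) and is shifted to long exons on the right (25.3% over 1000 bases).

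The listed exon is the leftmost 1 on the scaffold, so it is the first exon of a plus-strand and the last exon of a minus-strand transcript. Minus-strand loci had the longer listed exon in all 3 classes. The medians were 515 bases on the minus and 382.5 on the plus strand in other exon overlaps, 445 and 310 in new splice forms, and 278 and 239 in reference-structure loci. Listed exons over 1000 bases made up 21.2% of other exon overlaps on the plus and 28.9% on the minus strand, against 5.35% and 8.52% in new splice forms, so long exons were listed at both ends.

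The number of transcripts assembled per locus was read from the consecutive transcript numbers, which gave the right number for 1665 of 1693 loci in the exon file but for only 23 of its 37 loci with more than 1 transcript. For the other exon overlap on contig C4739871 it gave 2 where 1 was listed, and on contig C4771601 it gave 3 where 2 were listed. It was right for the remaining other exon overlaps with complete exon positions. By this estimate other exon overlaps held a median of 2 transcripts, and 49.2% of those at 1 FPKM or more held at least 3, against 61.6% of new splice forms and 8.63% of reference-structure loci. The number of the reference gene next to the listed one was named for no locus in 12.5% of other exon overlaps, 11.1% of new splice forms and 5.75% of reference-structure loci. Whether such a neighbouring gene model lies within the same locus was not tested.

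Nearly all of these loci had measurable transcript. At least 1 FPKM in at least 1 library was reached by 1901 of the 1996 (95.2%), close to the 92.2% of new splice forms and far above the 8.61% of reference-structure loci. Codes o and j are given only to transcripts assembled from reads, whereas reference transcripts can be listed without any, so these shares follow in part from how the classes are made. The remaining 95 loci lay under 1 FPKM in both libraries, with a median of 0.34 FPKM in control roots and of 0.45 FPKM under cadmium, and 6 of them were at 0 in both.

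Over all 1996 loci, FPKM in the control library had a median of 9.57, quartiles of 2.89 and 30.1, and a maximum of 24523. In the cadmium library the median was 8.60, the quartiles 3.03 and 24.0 and the maximum 3430. The lower quartile was thus slightly higher and the upper quartile lower in cadmium. The loci made up 1.36% of all loci, 5.79% of the control library's FPKM sum and 5.00% of that of the cadmium library. Their summed FPKM was 134173 in the control and 76647 in cadmium, and without the highest locus of each library 109650 and 73218. At least 100 FPKM was reached by 154 loci in the control and by 117 in cadmium, and at least 1000 FPKM by 17 and 13.

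The 2 libraries of the study set root transcripts under cadmium against those without it. Ratios were taken as log2 of cadmium over control after adding 1 FPKM to both values, which shrinks the ratios of weakly expressed loci, and a locus was called higher or lower at a ratio of at least 2-fold on this scale. Among the 1901 loci with another exon overlap, 341 (17.9%) were higher and 419 (22.0%) lower in the cadmium library, and 1141 were neither. Over all 33904 loci at 1 FPKM or more, 20.6% were higher and 28.6% lower. Both shares of other exon overlaps were therefore below the background. Their median log2 ratio was -0.02 (quartiles -0.84 and 0.69), against -0.07 over all loci. The median turned to 0.041 when the cadmium library was shifted so as to centre all loci, and to -0.19 when the upper quartiles were made equal, so it gives no direction.

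Larger differences were more often towards the control library, both in these loci and over all loci. At 4-fold or more, 134 loci (7.05%) were higher and 188 (9.89%) lower in cadmium, against 7.86% and 14.1% of all loci. At 8-fold, 47 (2.47%) were higher and 99 (5.21%) lower, against 3.60% and 7.68%. At 16-fold, 19 (0.999%) were higher and 51 (2.68%) lower, against 1.78% and 4.29%. The shares of other exon overlaps were below the background at each of these folds. Their number of higher loci per lower locus was 0.71 at 4-fold, against 0.56 over all loci. It was 0.47 in both at 8-fold, and 0.37 against 0.41 at 16-fold. The lean was thus weaker than over all loci at 4-fold, alike at 8-fold and slightly stronger at 16-fold, where few loci remained.

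**Figure D2:**
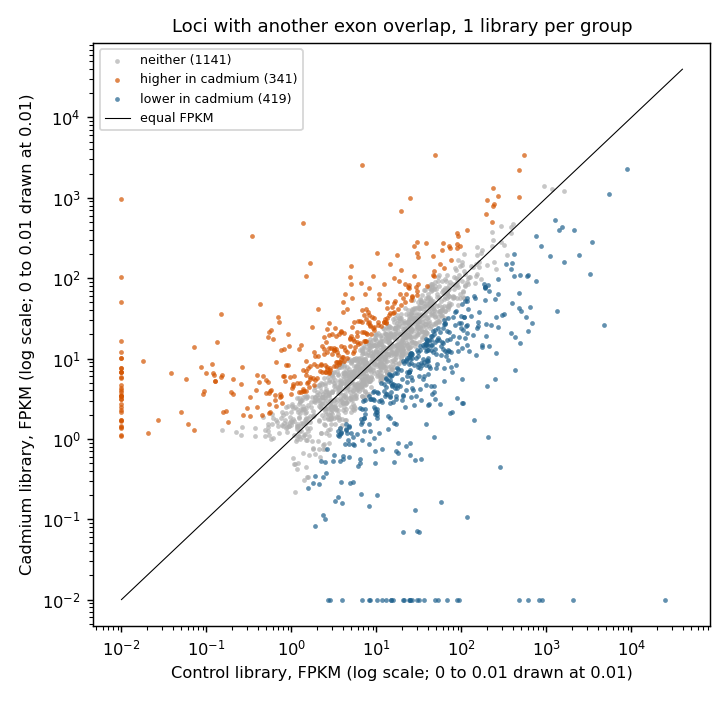
FPKM of the 1901 loci with another exon overlap in the control (x axis) and the cadmium library (y axis), both on log scales, with values under 0.01 drawn at 0.01 and a line of equal FPKM. Most points follow the line (1141 neither), with 341 loci higher and 419 lower in cadmium, and 30 loci listed at 0 in cadmium run along the lower edge up to 24523 FPKM in the control.

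Matched on level alone, other exon overlaps lay between the other classes and much closer to new splice forms. Levels were matched in 8 bins of the mean FPKM of both libraries, and each class was averaged over the bins with the numbers of other exon overlaps as weights. The average of the bin medians was -0.06 for other exon overlaps, 0.15 for new splice forms and -0.99 for reference-structure loci. With the same weights, 22.0% of other exon overlaps, 14.5% of new splice forms and 50.8% of reference-structure loci were lower in cadmium. The corresponding shares of higher loci were 17.9%, 19.6% and 15.0%. Other exon overlaps thus differed from new splice forms mainly in the share of lower loci.

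The direction of other exon overlaps changed with their level. Among the 195 loci with a mean of 0.5 to 2 FPKM, the median log2 ratio was 0.35, with 42 higher and 19 lower in cadmium. In the 342 loci at 2 to 5 FPKM it was 0.17, with 81 higher and 52 lower, and in the 343 loci at 5 to 10 FPKM it was 0.02, with 59 higher and 61 lower. From 10 FPKM upwards every bin had a negative median.

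The median was -0.17 in the 356 loci at 10 to 20 FPKM, -0.19 in the 372 at 20 to 50 and -0.16 in the 144 at 50 to 100. It was -0.46 in the 118 loci at 100 to 500 FPKM, of which 26 were higher and 51 lower, and -1.27 in the 31 loci at 500 FPKM and over, of which 11 were higher and 17 lower. New splice forms showed no such turn, with medians from 0.10 to 0.32 in the same 8 bins. Reference-structure loci had negative medians from -1.45 to -0.82 in all bins but the highest, where the median was 0.78.

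The turn with level was also present when the bins were made on the mean of the log2 values, which gives a single extreme value less weight. The median of other exon overlaps then was 0.45 in the 237 lowest loci (under 2 FPKM), -0.18 at 10 to 20 FPKM, -0.23 in the 96 loci at 100 to 500 FPKM and -1.27 in the 19 loci at 500 and over. The scale of the bins does not remove a shift of the whole library. Making the upper quartiles equal moved every cadmium value by -0.19 on the log2 scale, which is about as large as, or larger than, most medians of new splice forms, so their sign rests on the scaling. The shift is also larger than the medians of other exon overlaps at 2 to 5 FPKM (0.17) and 5 to 10 FPKM (0.02), but not in the lowest bin (0.35). The level at which other exon overlaps turn therefore rests on the scaling too. Centring all loci moved values up by 0.07, less than the size of the medians of other exon overlaps from 10 FPKM upwards. The distance between other exon overlaps and new splice forms at matched level, -0.21, moved by less than 0.1 under both scalings.

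**Figure D3:**
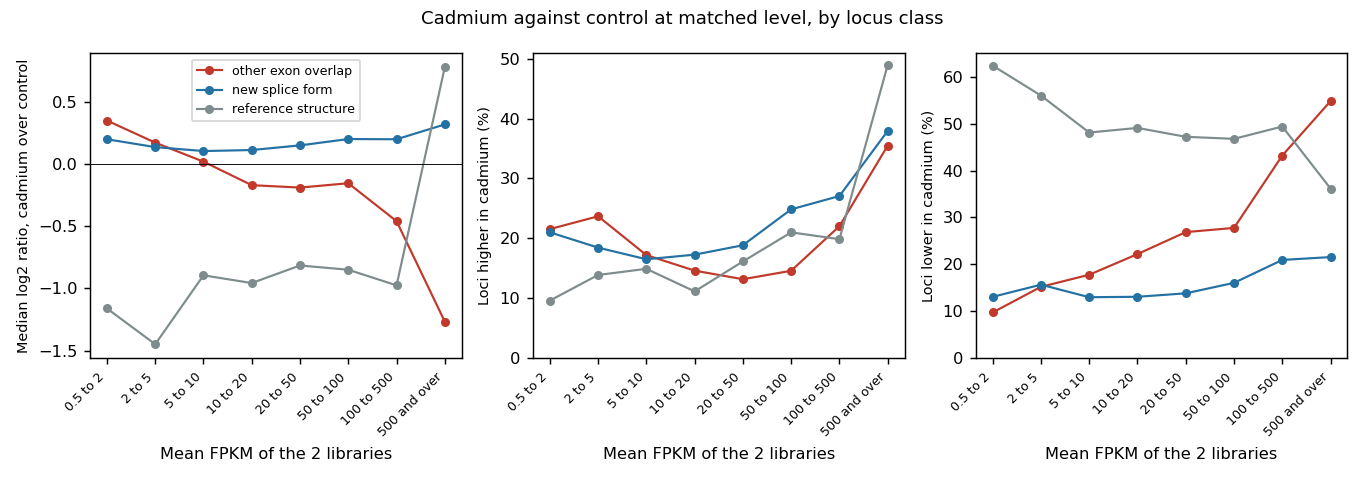
Median log2 ratio of cadmium over control (left), share of loci higher (middle) and share lower in cadmium (right, both in %) by the mean FPKM of the libraries, for the 3 classes. The median of other exon overlaps runs from 0.35 in the lowest to -1.27 in the highest bin, while that of new splice forms stays between 0.10 and 0.32.

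By the estimated number of transcripts, loci with few had the largest shares of lower loci. Of the 132 other exon overlaps with 1 transcript, 43 (32.6%) were lower and 28 (21.2%) higher in cadmium. The medians did not follow this order throughout, with -0.04 for 1 transcript, -0.19 for 2 and 0.18 for 6 or more. With 2 transcripts 217 of 833 (26.1%) were lower and with 3 transcripts 98 of 445 (22.0%). With 4 transcripts 25 of 200 (12.5%) were lower, and with 6 or more 20 of 168 (11.9%), while the shares of higher loci stayed between 16.2% and 21.2% for every number of transcripts.

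A like order was seen in the other classes. The share of lower loci was 61.1% with 1 transcript and 12.3% with 6 or more in reference-structure loci, and in new splice forms it was 17.3% with 1, 20.6% with 2 and 7.66% with 6 or more. When classes were matched on both level and number of transcripts, the averaged median was -0.07 in other exon overlaps, 0.10 in new splice forms and -0.18 in reference-structure loci. The distance of reference-structure loci to other exon overlaps, 0.93 on the log2 scale at matched level, was then 0.11. That between other exon overlaps and new splice forms was -0.16, so other exon overlaps were then no longer closer to new splice forms. The number of transcripts comes from an assembly of the same reads, so it is not independent of the levels compared.

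**Figure D4:**
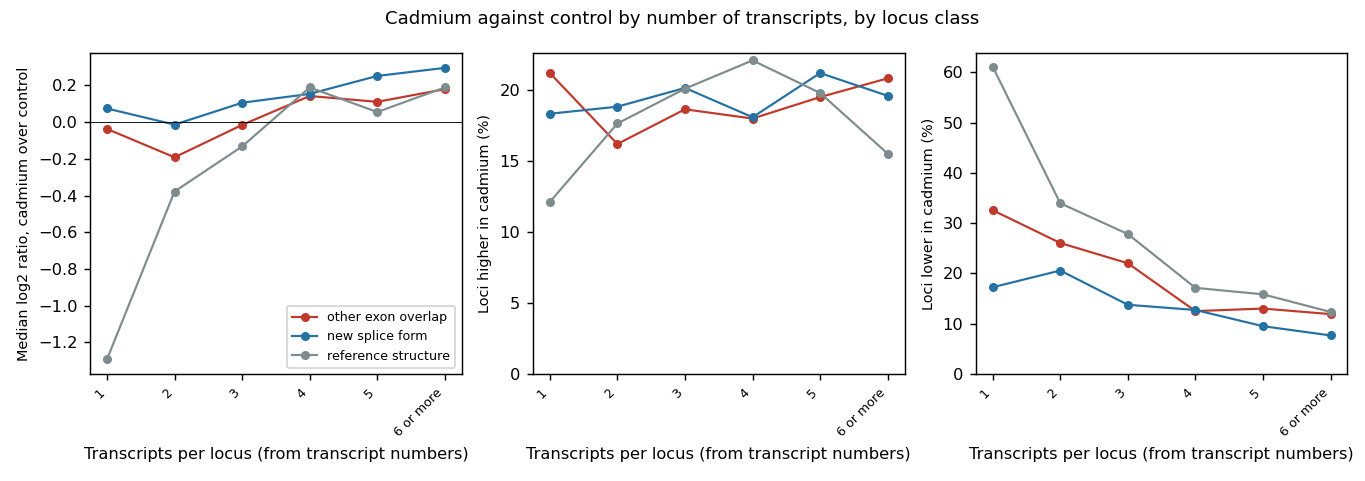
Median log2 ratio of cadmium over control (left), share of loci higher (middle) and share lower in cadmium (right, both in %) by the estimated number of transcripts per locus, for the 3 classes. The share of lower loci goes from 32.6% to 11.9% in other exon overlaps and from 61.1% to 12.3% in reference-structure loci, and the classes lie close together from 4 transcripts upwards.

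Level and number of transcripts were both related to direction within other exon overlaps. Among loci with 1 or 2 transcripts, 133 of 599 (22.2%) were lower and 115 (19.2%) higher below a mean of 20 FPKM. At 20 FPKM or more, 127 of 366 (34.7%) were lower and 48 (13.1%) higher. In new splice forms with 1 or 2 transcripts 19.7% were lower at either level, and in reference-structure loci 59.4% and 50.6%. Among loci with at least 4 transcripts, 29 of 343 (8.45%) and 32 of 148 (21.6%) were lower. Sharing an interval made less difference, with 130 of 536 (24.3%) lower in shared intervals and 289 of 1365 (21.2%) elsewhere. Between plus-strand and minus-strand loci the medians were 0.00 and -0.03.

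Interval length was compared over loci with an interval of their own. The median log2 ratio was -0.37 in the 55 other exon overlaps of 1000 bases or less, -0.19 in the 246 above that and up to 2000 bases and -0.03 in the 772 up to 5000 bases. It was 0.03 in the 239 above 5000 and up to 10000 bases and 0.18 in the 44 up to 20000 bases. Longer intervals were nearly all shared, with 107 of 116 above 20000 bases. The length of the listed exon had little relation to direction, with medians between -0.14 and 0.05 in 7 length groups. It did go with zeros in cadmium: 7 of 127 loci with a listed exon of 50 bases or less were at 0 there (5.51%), and none of the 459 with more than 1000 bases. In the control 4 of the 127 were at 0, and 3 of the 329 with more than 1000 and up to 2000 bases. Over all loci, 3.92% were at 0 in the control and 11.9% in cadmium. The other classes had a like difference in cadmium. It was 37.7% at 50 bases or less and 0.63% above 2000 in reference-structure loci, and 2.79% and 0 in new splice forms.

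The most abundant of these loci went in both directions. Of the 31 with a mean of 500 FPKM and over, 17 were lower and 11 higher in cadmium. The locus with the highest control value among those above 0 in both libraries lay on scaffold26296 from 32282 to 34280 and had 8813 FPKM in control roots and 2278 FPKM under cadmium. The locus on scaffold3896 from 7641 to 9406 stood at 5492 and 1113 FPKM, and that on scaffold30783 from 4116 to 5843 at 3402 and 280 FPKM. These 3 loci were alike in structure: each lay on the minus strand in an interval of 1728 to 1999 bases of its own, had 2 transcripts and a listed last exon of 1439 to 1513 bases. All 8 loci with the highest control FPKM were lower in cadmium.

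Among the 8 loci with the highest cadmium FPKM, 7 had the higher value in cadmium. The highest, on scaffold4494 from 54092 to 54947, had 545 FPKM in control roots and 3430 FPKM under cadmium, 6.29-fold higher. A locus on scaffold29055 from 12531 to 13206 stood at 237 and 1329 FPKM, while that on scaffold5927 from 67540 to 71232 had 479 and 2244 FPKM. An abundant locus that differed little lay on scaffold4096 from 10586 to 13583, with 1159 FPKM without and 1298 FPKM with cadmium. Being high in a library favours loci that are lower in the other, so these lists do not show a direction of their own.

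Ratios were ranked over 1083 loci that were 500 bases or longer, had 1 FPKM or more in each library and 10 FPKM or more in 1 of them. XLOC_074428 (scaffold22829, 45338 to 48520, minus strand) had 6.78 FPKM in control roots and 2570 FPKM under cadmium, 379-fold higher. XLOC_009443 (contig C4924671, 10022 to 11503, plus strand) had 1.36 and 482 FPKM, 355-fold higher. Both had an interval of their own and 2 transcripts, but the listed exon of the former was 19 bases and that of the latter 990 bases long.

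The next loci in this order had ratios under 100-fold. The locus on scaffold1194 from 10259 to 13475 had 49.2 FPKM in control roots and 3415 FPKM under cadmium. It shared its interval with a reference-structure locus of the same strand and the same reference gene, which stood at 1.58 and 0.69 FPKM. The locus on scaffold6225 from 30102 to 34595 stood at 1.65 and 154 FPKM, while that on scaffold4661 from 45229 to 47995, with a listed exon of 2545 bases, had 1.49 and 105 FPKM.

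The locus on scaffold8639 from 3614 to 10063 had 24.7 FPKM in control roots and 1006 FPKM under cadmium, and that on scaffold16172 from 23909 to 24809 at 5.06 and 143 FPKM. The locus whose listed exon starts at 19299 on scaffold1024 stood at 19.7 and 685 FPKM. It shared its interval, 13276 to 21891, with a new splice form on the opposite strand that stood at 75.6 and 45.5 FPKM. The difference of the neighbour was under 2-fold and in the opposite direction.

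In the other direction, XLOC_137678 (scaffold817, 134391 to 137613, plus strand) had 4770 FPKM in control roots and 26.3 FPKM under cadmium, 182-fold lower. XLOC_011384 (contig C4938349, 14061 to 16033, minus strand) stood at 207 and 1.06 FPKM, 195-fold lower. An unstranded intergenic locus with the same interval as the latter and an exon from 15532 to 15791 had 89.0 FPKM in control roots and 0 under cadmium. Both loci of this interval were lower in cadmium.

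The locus on scaffold16101 from 85560 to 88576 had 431 FPKM in control roots and 7.11 FPKM under cadmium, and that on scaffold5985 from 115705 to 117333 at 141 and 1.74 FPKM. The locus on scaffold1302 from 10825 to 12824 stood at 1332 and 38.6 FPKM. These 3 had listed exons of 1241, 1232 and 1744 bases, all in intervals of their own. The remaining 3 of the 8 lowest ratios were 44.0-fold lower on scaffold30572, 31.7-fold lower on scaffold30765 and 29.5-fold lower on scaffold16227, where the values were 3281 FPKM in control roots and 111 FPKM under cadmium.

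**Figure D5:**
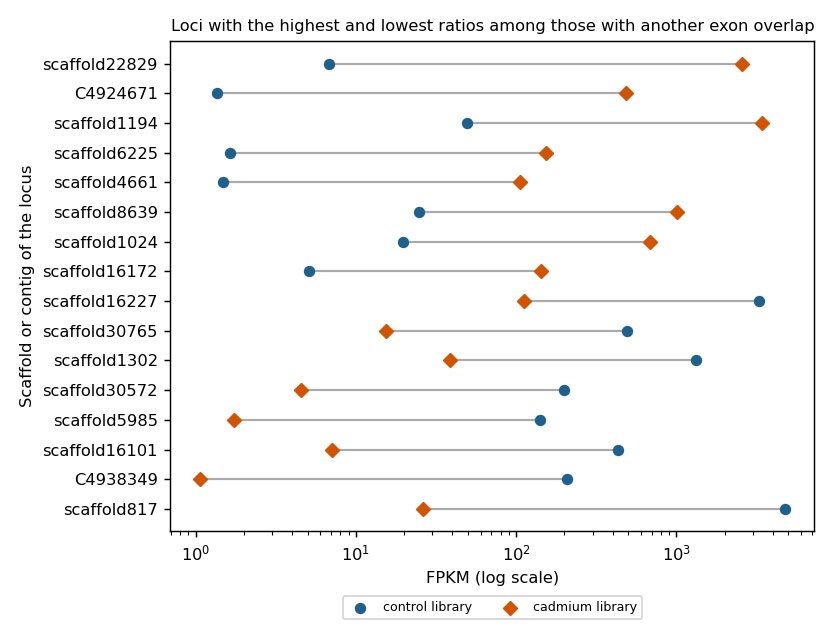
FPKM (log scale) in the control (circles) and cadmium library (diamonds) of the 8 loci with the highest and the 8 with the lowest ratios of cadmium over control, each named by its scaffold or contig, with a line joining both values. The upper 8 run from 1.36 to 49.2 FPKM in the control up to 3415 in cadmium, and the lower 8 from up to 4770 FPKM in the control down to as little as 1.06 in cadmium.

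Being listed at 0 in 1 library was uncommon. Of the 1901 loci, 36 (1.89%) were at 0 in the control and 30 (1.58%) in cadmium, against 3.92% and 11.9% of all 33904 loci. The levels in the other library differed. Those at 0 in the control had a median of 3.66 FPKM in cadmium, and 7 of the 36 reached 10 FPKM. Those at 0 in cadmium had a median of 24.4 FPKM in the control, and 24 of the 30 reached 10 FPKM. Of loci with at least 10 FPKM in the control, 24 of 982 other exon overlaps (2.44%) were at 0 in cadmium, against 0.63% of new splice forms and 17.8% of reference-structure loci. In the other direction the shares were 0.76%, 0.46% and 3.47%.

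Of the 4 highest control values among loci at 0 in cadmium, all had a listed exon of at most 73 bases and 3 lay in a shared interval. The exception, on scaffold5083 from 23916 to 27038, had 882 FPKM in control roots, a listed exon of 9 bases and an interval of its own. The locus on scaffold8874 whose listed exon spans 190499 to 190530 had 24523 FPKM in control roots and was listed at 0 under cadmium. A reference-structure locus in the same interval, on the same strand and with the same reference gene, was at 0 in both libraries. The locus on scaffold4182 with a listed exon at 55354 to 55426 had 2031 FPKM in control roots and was listed at 0 under cadmium, while a new splice form of the same reference gene in that interval stood at 53.6 and 114 FPKM. On contig C4960123 a locus with a listed exon of 43 bases had 824 FPKM in control roots and 0 under cadmium, and a reference-structure locus of the same reference gene in that interval had 9.84 FPKM and 0.

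The reverse was seen on contig C4969885, where a locus with a listed exon of 44 bases was at 0 in the control and at 975 FPKM in cadmium. A new splice form of the same reference gene in that interval stood at 7.80 and 29.3 FPKM. The locus on scaffold16560 from 62777 to 70199 was at 0 in the control and 102 FPKM in cadmium, with an interval of its own and a listed exon of 452 bases. Of the 30 loci at 0 in cadmium, 14 lay in shared intervals, 12 had a single transcript and 11 had a listed exon of 100 bases or less. Of the 36 at 0 in the control these numbers were 13, 7 and 8. Whether such a 0 means that no fragment was sequenced or that the estimate failed was not tested.

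Some other exon overlaps had the interval, strand and reference gene of a reference-structure locus or new splice form. The differences of both loci could then be set side by side. Loci of the same reference gene in different intervals were not paired. With both at 1 FPKM or more in at least 1 library, there were 54 such pairs with a reference-structure locus. Both members passed 2-fold in the same direction in 13 pairs and in opposite directions in 4. Only the other exon overlap passed in 9, only the reference-structure locus in 15, and neither in 13. The medians in these pairs were -0.21 for other exon overlaps and -1.03 for their partners, with reference-structure loci lower, as they were over all loci.

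In 50 pairs with a new splice form, both passed 2-fold in the same direction in 6 and in opposite directions in 5. Only the other exon overlap passed in 20 pairs, only the new splice form in 6 and neither in 13. Over all 1901 other exon overlaps, 17.9% were higher and 22.0% lower at 2-fold, and 49.2% of all loci passed in either direction. The medians were -0.38 and 0.17. On scaffold5031, for example, an other exon overlap in an interval of 106960 bases had 429 FPKM in control roots and 18.5 FPKM under cadmium, while a new splice form of the same reference gene stood at 254 and 226 FPKM. Whether reads were divided between the loci of such a pair was not tested.

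The longest and shortest loci showed both directions. The longest interval, 113105 bases on scaffold4457, held an other exon overlap with 0.94 FPKM in control roots and 14.4 FPKM under cadmium, and an antisense locus of the same reference gene, at 0.28 and 4.31 FPKM. All 5 longest intervals were shared with other loci. The shortest locus at 1 FPKM or more, 346 bases on scaffold2564 from 14045 to 14390, had 246 FPKM in control roots and 5.51 FPKM under cadmium. The next shortest, 426 bases on scaffold472, stood at 6.23 and 6.06 FPKM.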

How the data were processed

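RNA of 2 root libraries, 1 control and 1 cadmium, was compared. The authors deposited 1 FPKM value per locus and library, and a table with the first listed exon, class code and reference gene of 1 transcript per locus. Per the submitters' processing notes, the tools were TopHat2 2.0.13 with Cufflinks 2.2.1, and Cuffnorm 2.2.1. Their settings are not stated. Nothing in the sources used here gives strandedness, genome build or read numbers, so the depth behind each value is unknown. In the exon file the listed exon was the first row of its locus in all 1693 complete loci.

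Computed here were log2 ratios with a pseudocount of 1 FPKM, over loci with at least 1 FPKM in 1 library, counts past 2-fold, and class values in bins of mean FPKM. The functions were tested on simulated data. Python 3.11.15, numpy 2.4.6, pandas 2.3.3 and matplotlib 3.10.9 were used. Members, groupings and settings were chosen with earlier results of these data known. Named loci were the extremes of ratio, FPKM, zeros and length by a fixed ranking rule, with identifiers for 2 higher and 2 lower loci. Loci of the exon file and partner loci were chosen after their values were seen.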

Additional observations from a re-analysis of the deposited data

How the results depend on the processing

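No paired analysis was possible because there was 1 library per condition, which also means that none could be left out. Moves under 0.1 in a log2 value and under 1.5 times in a count are not given. The median of -0.02 for other exon overlaps was 0.041 when all loci were centred (a shift of 0.07), -0.19 with equal upper quartiles (a shift of -0.19) and 0 without a filter, so its sign rests on the scaling. Higher loci numbered 198 with a pseudocount of 5, and a 4-fold rule left 134 higher and 188 lower. In every setting more were lower than higher. At matched level, other exon overlaps stayed below new splice forms in every setting, by 0.16 to 0.27. Their distance to reference-structure loci, 0.93, stayed positive but moved: 1.35 with a pseudocount of 0.1, 0.56 with 5, 0.71 in loci of 500 bases or more, 0.44 in loci above 0 in both libraries, 0.75 in bins of the mean log2 value and 0.59 when also matched on interval length. Added after seeing the data, it was 0.11 when also matched on transcripts and 0.44 without loci under 0.001 FPKM in either library, zeros included. The cause of these moves was not tested. For the 16 loci with the extreme ratios, 39 of 48 log2 values moved and none changed direction.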
